A study of Mus musculus with 15 samples.

Results

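The pyruvate dehydrogenase complex and its kinases were followed in mouse gastrocnemius through 9 genes: Pdha1, Pdhb, Dlat, Dld and Pdhx for the complex, and Pdk1, Pdk2, Pdk3 and Pdk4 for the kinases. A probe set, a group of short probes that reads 1 transcript, was taken where the platform annotation gave it exactly 1 gene symbol and that symbol was one of the 9. This gave 13 of the 22626 probe sets tested and 8 of the 9 genes, with 2 probe sets for Pdha1, 2 for Pdhb, 3 for Dlat, 2 for Pdk1 and 1 each for Dld, Pdk2, Pdk3 and Pdk4. No probe set carried the symbol Pdhx, so that gene is not analysed here. The groups were 5 old mice on caloric restriction (old CR, 25 months), 5 old mice on the normal diet (old, 25 months) and 5 young mice on the normal diet (young, 5 months), and each mouse was hybridized to its own MOE430A array. All were male C57BL/6NHsd mice housed singly and killed by cervical dislocation. The normal diet supplied 84 kcal per week, which the submitters put below free feeding, and the lifelong CR diet differed from it by 26% in calories, with protein, vitamins and minerals raised so that both diets supplied nearly the same amounts of these. The feeding state and the hour at which tissue was taken are not given in the sources used here.

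The pyruvate dehydrogenase complex sits in the mitochondrial matrix and turns pyruvate, the end product of glycolysis, into acetyl-CoA, so that it stands between carbohydrate use and the citric acid cycle. Its E1 component removes carbon dioxide from pyruvate, its E2 component passes the acetyl group to coenzyme A, and its E3 component restores the lipoyl arm of E2. The kinases phosphorylate the alpha subunit of E1 and switch the complex off, and phosphatases switch it on again. In muscle this switch is known for sparing glucose when fatty acids are the main fuel, as in fasting.

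Values are linear intensities as deposited, scaled by the authors so that the trimmed mean of each array is 500.0, and log2 differences come from limma with all 15 arrays in 1 fit. A probe set counted as called where the p adjusted over all 22626 (Benjamini-Hochberg) was under 0.05. Intensities of different probe sets depend on their probes, so no level of one gene was set against another. In the gene lists below, each gene was read only at its probe set with the highest mean over the 15 arrays. In a whole muscle, fewer cells of a type and less RNA per cell cannot be told apart. As markers of the labelled tissue, 7 skeletal muscle fiber genes (Acta1, Ckm and 5 of fast fibers) were all measured among the 11000 probe sets with the highest means, and their summed intensity was 167228 to 247085 in old CR, 153348 to 205966 in old and 190152 to 218526 in young mice. The summed intensity of 6 slow fiber genes was 56754 to 83119 in old CR mice, above all 5 old mice (23752 to 52169) and overlapping the young (21932 to 60503). The array also reads Gapdh and Actb near both ends of the transcript, and the log2 intensity of the 3' reading minus that of the 5' reading, averaged over both genes and called the end difference here, is a sign of RNA or labelling quality. It lay between -0.42 and -0.21 in old CR, between 0.05 and 0.27 in old and between -0.28 and 0.06 in young mice. Young replicate 3, at 0.06, lay among the old arrays in this measure, and the other 4 young mice lay at -0.18 or below.

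Of the 13 probe sets, 1 was called in old CR against old, where it rose, and 0 were called in old against young and in old CR against young. Over the whole array limma called 4.87% of probe sets in old CR against old (2.7% higher and 2.17% lower), 0.265% in old against young and 0.0884% in old CR against young, so a count of 1 in 13 or 0 in 13 was no result about these genes as a group. The split of these calls depended on the scaling, with 612 higher and 490 lower in old CR against old, but 420 and 687 once the arrays were centered on their medians. All 5 mice of one group lay on one side of all 5 of the other for 1 of 13 in old CR against old, where old CR was higher, beside 4.86% of all probe sets higher and 8.89% in either direction. No member did so in old against young (3.61% of all probe sets in either direction) or in old CR against young (3.57%). At an unadjusted p under 0.05 the counts of members were 3, 1 and 1 of 13 in the same order, beside 21.9%, 15.5% and 12.1% of all probe sets. In the fit of the 11000 brightest, among which 12 of the 13 lay, these shares were 32.4%, 23.7% and 17.9%. The median log2 difference of the 13 probe sets was 0.12 in old CR against old, beside 0.06 over all probe sets tested, -0.13 in old against young, beside -0.06, and 0.20 in old CR against young, beside -0.01. The mean was higher in old CR than in old mice for 11 of 13 probe sets (7 with this centering, 10 with quantile normalization) and lower in old than in young mice for 9 of 13 (7 and 8).

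**Figure D1:**
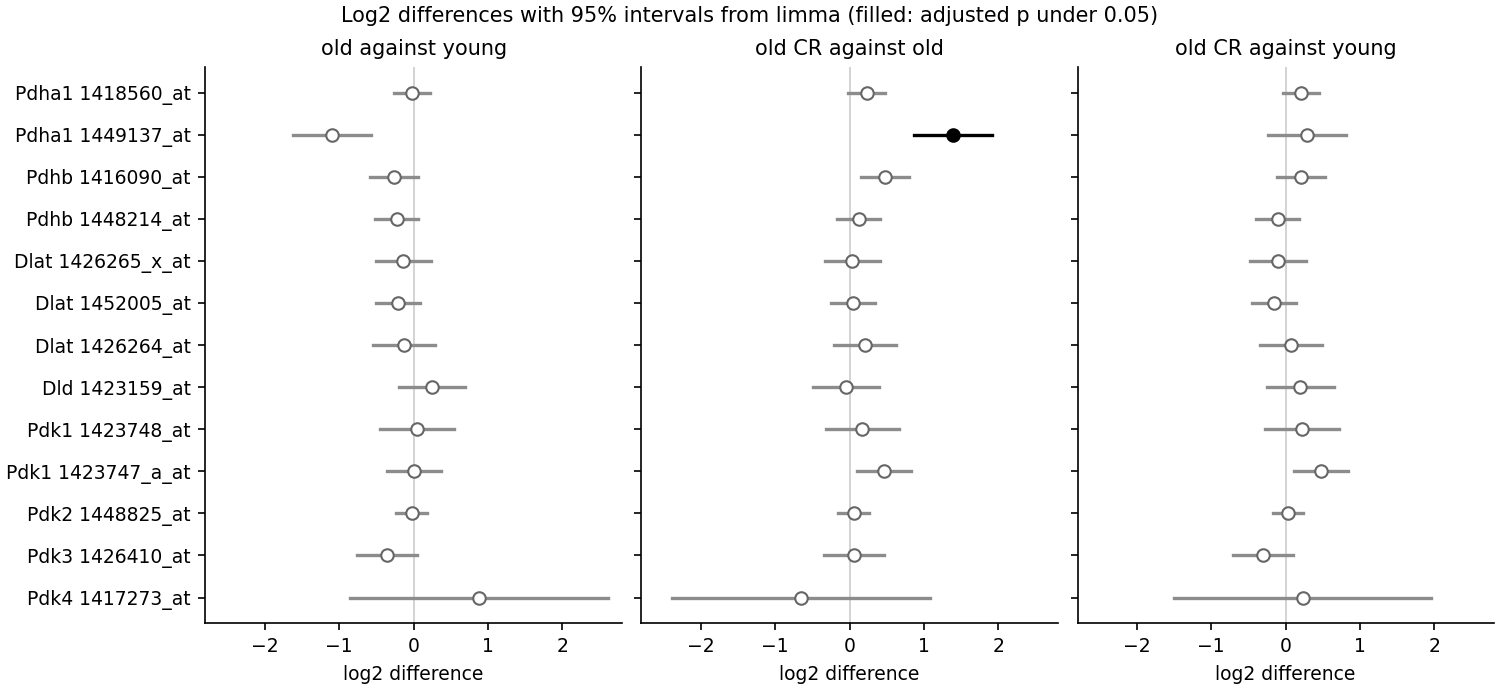
Log2 difference (horizontal axis) of each of the 13 probe sets in old against young, old CR against old and old CR against young mice, with points for the limma estimates and lines for their 95% intervals. The filled point is the only call, Pdha1 1449137_at in old CR against old (1.39), and the widest intervals belong to Pdk4 (-0.86 to 2.61 in old against young).

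Pdha1 encodes the X-linked alpha subunit of E1, which carries the serines that the kinases phosphorylate. Its probe sets did not give the same picture. At 1418560_at, the brighter one, intensities were 14526, 12579, 14045, 15173 and 17923 in old CR replicates 2, 3, 5, 6 and 7, against 12970, 11082, 14034, 11885 and 13112 in the 5 old mice and 12521, 13413, 12398, 12243 and 13306 in the 5 young mice. All groups overlapped, and none of the comparisons was called. Log2 differences were 0.23 in old CR against old (95% interval -0.02 to 0.48, adjusted p = 0.262), -0.02 in old against young (-0.27 to 0.23, adjusted p = 0.952) and 0.21 in old CR against young (-0.04 to 0.46, adjusted p = 0.503), all from limma.

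At the second Pdha1 probe set, 1449137_at, intensities were 8166, 5544, 6779, 6169 and 7253 in the old CR mice, against 2912, 2421, 2540, 2221 and 2787 in the old mice. The young mice had 6795, 6484, 2501, 6599 and 6915. The old CR and old groups did not overlap, as for 8.89% of all probe sets in this comparison, and young replicate 3 lay among the old mice while the other 4 young mice lay in the range of old CR. This probe set rose in old CR against old muscle by a log2 difference of 1.39 (SE 0.25, 95% interval 0.86 to 1.92, adjusted p = 0.0113 from limma), or 2.62-fold, with means of 6782 ± 1006 in old CR and 2576 ± 278 in old mice (SD, n = 5 each). Old against young had -1.10 (SE 0.25, 95% interval -1.63 to -0.57, adjusted p = 0.0714) and was not called. With the end difference as a covariate, old against young was -0.28 (adjusted p = 0.926). Of the young mice only replicate 3 shared the end differences of the old mice, so this fit can hardly tell age and RNA quality apart. Without young replicate 3 and with no covariate, old against young was -1.38 with an adjusted p of 0.000152 from limma. Over the 15 fits that leave out 1 array its adjusted p ran up to 0.172. Old CR against young had 0.29 (-0.24 to 0.82, adjusted p = 0.693). The call in old CR against old held in all 15 of those fits, with adjusted p up to 0.0296.

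**Figure D2:**
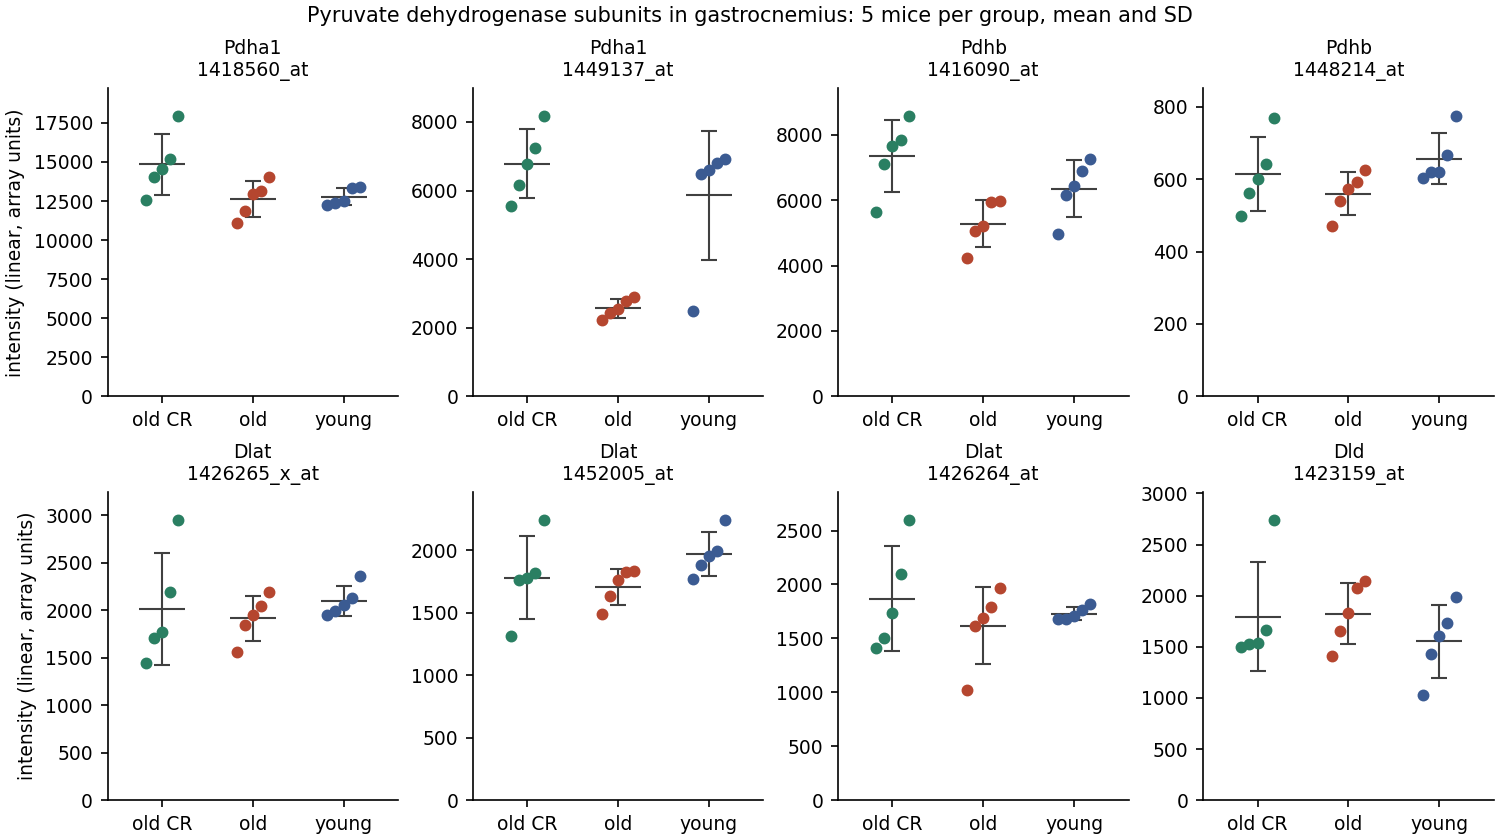
Linear intensity (vertical axes, each starting at 0) of the 8 probe sets of Pdha1, Pdhb, Dlat and Dld in old CR, old and young mice, 1 point per mouse, with the mean and SD of 5 mice. At Pdha1 1449137_at the 5 old mice lie between 2221 and 2912 with young replicate 3 at 2501, while at Pdha1 1418560_at all groups overlap.

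The disagreement between the Pdha1 probe sets was measured within each array as the log2 intensity of 1449137_at minus that of 1418560_at. It was -1.31 to -0.83 in old CR, -2.47 to -2.15 in old and -2.31 to -0.88 in young mice. Old CR minus old was 1.16 (two-sided exact permutation p = 0.00794, the lowest that 5 against 5 arrays allow, adjusted p = 0.0476 over 18 such tests). Between old and young it was -1.08 (exact p = 0.0317, adjusted p = 0.143) and between old CR and young 0.08 (exact p = 0.944). The 2 probe sets thus changed unequally in old CR against old.

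The end difference moved with the values of 1449137_at. For the Gapdh controls it was -0.21 ± 0.12 in old CR, 0.25 ± 0.10 in old and -0.04 ± 0.19 in young mice, and for the Actb controls -0.38 ± 0.09, 0.01 ± 0.11 and -0.32 ± 0.09 in the same order (SD, n = 5 each). Old CR and old differed for both genes (exact permutation test, adjusted p = 0.0159 each over 6 tests), old and young for Actb (adjusted p = 0.0159) with 0.0595 for Gapdh, and old CR and young had 0.152 and 0.349. In the plot of Pdha1 against this measure, the 5 old mice and young replicate 3 stood together on the right at low intensity, and the other 9 mice on the left at 5544 or more. With the measure as a covariate, the log2 difference of 1449137_at in old CR against old was 0.27 (adjusted p = 0.934), and 0 of 22626 probe sets were called in that fit. The end difference did not overlap between old CR and old mice, so this fit cannot tell diet and RNA quality apart. The part of RNA quality in the Pdha1 result was not tested. Of 6 slow fiber genes 1 was called in old CR against old (Tnnc1, slow troponin C, log2 1.45, adjusted p = 0.027), all 6 means being higher in old CR, and 0 were called in old against young. Their part in the Pdha1 result was not tested.

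**Figure D3:**
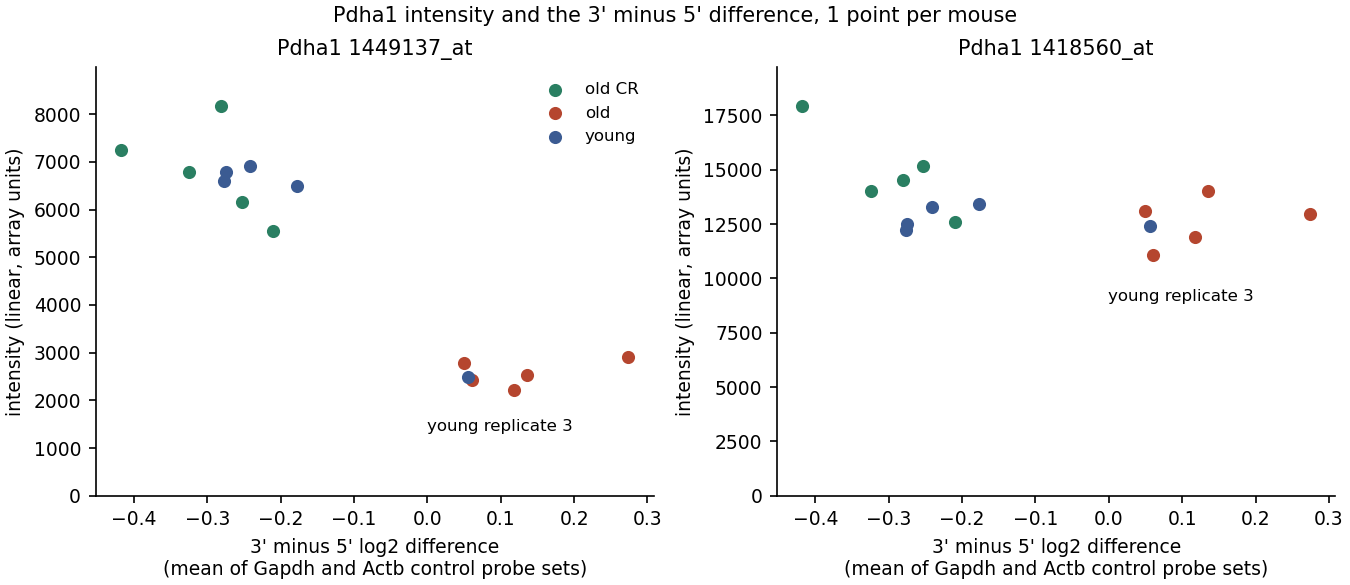
Intensity of the 2 Pdha1 probe sets (vertical axes, starting at 0) against the end difference, 3' minus 5' in log2 units as a mean over Gapdh and Actb (horizontal axes), 1 point per mouse and colored by group. At 1449137_at the 6 arrays at 0.05 or above have 2912 or less and the 9 arrays at -0.18 or below have 5544 or more, a gap that 1418560_at does not have.

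The genes most like 1449137_at over the 15 arrays, by Pearson's r among 10102 bright probe sets with 1 symbol, were Cs, the citrate synthase that takes up the acetyl-CoA made by the complex (1422577_at, r = 0.977), Nars, an asparaginyl-tRNA synthetase (1428666_at, r = 0.974), and Atp6v0b, a subunit of the vacuolar proton pump (1416769_s_at, r = 0.970). Over the same arrays the values share group and array quality, and the likeness is a description. Cs 1422577_at had 6709, 6011, 6043, 5314 and 6686 in old CR mice, against 2836, 2975, 3209, 2487 and 2897 in old mice, and 2700 in young replicate 3 against 6208 to 7435 in the other young mice. Its log2 difference in old CR against old was 1.09 (adjusted p = 0.0193). The other probe sets of Cs did not share this pattern, with -0.06 at 1422578_at and 0.15 at 1450667_a_at in the same comparison and r with Pdha1 1449137_at of -0.03 and 0.06. The second probe set of Nars had an r of 0.310, and those of Atp6v0b had 0.804 and 0.714.

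Pdhb encodes the beta subunit of E1. At its brighter probe set, 1416090_at, intensities were 8565, 5631, 7115, 7826 and 7648 in old CR mice, against 5968, 5219, 5957, 4224 and 5060 in old mice and 6435, 6896, 7260, 6169 and 4971 in young mice. Of the old CR mice 4 lay above every old mouse, and old CR replicate 3 lay within the old range. The log2 difference in old CR against old was 0.47 (SE 0.15, 95% interval 0.15 to 0.80) with an adjusted p of 0.0832, so it was not called over all probe sets. It passed at 0.0326 among the 11000 brightest probe sets and at 0.0342 with a variance trend. Old against young had -0.26 (-0.59 to 0.06, adjusted p = 0.423) and old CR against young 0.21 (-0.11 to 0.53, adjusted p = 0.628).

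The second Pdhb probe set, 1448214_at, read 769, 498, 601, 643 and 561 in old CR, 573, 538, 625, 472 and 592 in old and 602, 620, 774, 619 and 668 in young mice. These ranges overlapped in every comparison, with log2 differences of 0.12 in old CR against old (-0.17 to 0.41), -0.23 in old against young (-0.52 to 0.06) and -0.10 in old CR against young (-0.39 to 0.19). Within arrays, 1448214_at minus 1416090_at was lower in old CR than in old mice by 0.35 and lower in old CR than in young mice by 0.32 (exact permutation test, adjusted p = 0.0476 each over the 18 tests). In old CR against old the 2 Pdhb probe sets therefore also changed unequally, by less than those of Pdha1 (1.16). In old CR against young the shift was larger for Pdhb than for Pdha1 (0.08). The part of the end difference in these shifts was not tested.

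Dlat encodes E2, the lipoyl-bearing acetyltransferase that forms the core of the complex. None of its 3 probe sets was called in any comparison. At the brightest, 1426265_x_at, intensities were 2952, 1448, 2189, 1770 and 1706 in old CR mice, against 1841, 1946, 2195, 2042 and 1558 in old mice and 2134, 2061, 2357, 1952 and 1989 in young mice. Old CR replicates 2 and 3 were the highest and the lowest of all 15 mice. The log2 difference was 0.04 in old CR against old (-0.34 to 0.41), -0.14 in old against young (-0.51 to 0.23) and -0.10 in old CR against young (-0.47 to 0.27). The other 2 probe sets had log2 differences of 0.04 and 0.20 in old CR against old, -0.20 and -0.13 in old against young, and -0.16 and 0.07 in old CR against young. No test between Dlat probe sets within arrays passed after adjustment (adjusted p 0.171 or more).

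Dld encodes E3, the dihydrolipoamide dehydrogenase that the complex shares with the other 2-oxoacid dehydrogenases. Its probe set 1423159_at had 2740, 1531, 1498, 1536 and 1669 in old CR mice, against 1835, 2075, 2144, 1653 and 1414 in old mice and 1601, 1029, 1983, 1426 and 1732 in young mice. Old CR replicate 2 was the highest of the 15 mice and the other 4 old CR mice lay within a narrow band in the range of both other groups. Its log2 differences were -0.05 in old CR against old (-0.50 to 0.40), 0.25 in old against young (-0.20 to 0.70) and 0.20 in old CR against young (-0.25 to 0.65). Without old CR replicate 2 the last was 0.04. This mouse was the highest of the 15 in 7 of the 13 probe sets, among them 1 of Pdha1, 1 of Pdhb, 2 of Pdk1 and Dld.

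The 4 kinases differed widely in their spread between mice. Pdk2, the kinase found in most tissues, was nearly level. Its probe set 1448825_at had 5218, 6013, 5443, 5164 and 5331 in old CR mice, against 5251, 5307, 4965, 5264 and 5339 in old mice and 5220, 5244, 5769, 5593 and 4778 in young mice. All 3 groups lay over one another. Log2 differences were 0.05 in old CR against old (95% interval -0.15 to 0.26), -0.02 in old against young (-0.23 to 0.18) and 0.03 in old CR against young (-0.18 to 0.24). The SD of log2 values within groups was 0.083, beside a median of 0.260 over the 11000 brightest probe sets, of which 99.8% had a larger one.

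Pdk1, the kinase known as a target of hypoxia-inducible factor, had 2 probe sets and no call. At 1423748_at intensities were 369 to 899 in old CR (median 593), 421 to 704 in old (median 510) and 413 to 716 in young mice (median 510), with a log2 difference of 0.17 in old CR against old (-0.32 to 0.67). At 1423747_a_at the old CR mice had 612, 502, 395, 449 and 334, against 329, 374, 336, 358 and 245 in old mice and 323, 338, 336, 356 and 270 in young mice. Of the old CR mice 4 lay above every old and every young mouse. Its log2 difference was 0.47 in old CR against old (SE 0.17, 95% interval 0.10 to 0.83, adjusted p = 0.124) and 0.47 in old CR against young (0.11 to 0.84, adjusted p = 0.279), and neither was called. Old against young had 0.01 (-0.35 to 0.37).

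Pdk3, a kinase with a narrower known tissue range, was dim. Its probe set 1426410_at had 11 to 15 in old CR, 9 to 17 in old and 12 to 23 in young mice, where the median of an array was 201 to 243, and it was the one of the 13 outside the 11000 brightest probe sets. The table gives no detection call, so whether the transcript was present was not decided. The log2 difference was 0.05 in old CR against old (-0.35 to 0.46), -0.36 in old against young (-0.77 to 0.04) and -0.31 in old CR against young (-0.71 to 0.10).

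Pdk4, the kinase known to be induced in muscle by fasting through fatty acid, FoxO and glucocorticoid signals, was the most variable. Its probe set 1417273_at had 864, 619, 5237, 5226 and 6182 in old CR replicates 2, 3, 5, 6 and 7. The old mice had 1839, 2513, 1781, 10780 and 9725, and the young mice 1663, 700, 6606, 3239 and 1656. Each group thus held both low and high mice, with the highest value 9.98 times the lowest in old CR, 6.05 times in old and 9.44 times in young mice. The SD of log2 values within groups was 1.38, and of the 11000 brightest probe sets 15 (0.136%) had a larger one.

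With this spread the group differences of Pdk4 had wide intervals. The log2 difference was -0.65 in old CR against old (SE 0.81, 95% interval -2.39 to 1.08, adjusted p = 0.686), 0.88 in old against young (-0.86 to 2.61, adjusted p = 0.637) and 0.23 in old CR against young (-1.51 to 1.96, adjusted p = 0.944). A difference of 2-fold in either direction lay inside the intervals of old CR against old and old CR against young, and one of 2-fold higher inside that of old against young. The means were 3626 ± 2662 in old CR, 5328 ± 4521 in old and 2773 ± 2329 in young mice (SD, n = 5 each).

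**Figure D4:**
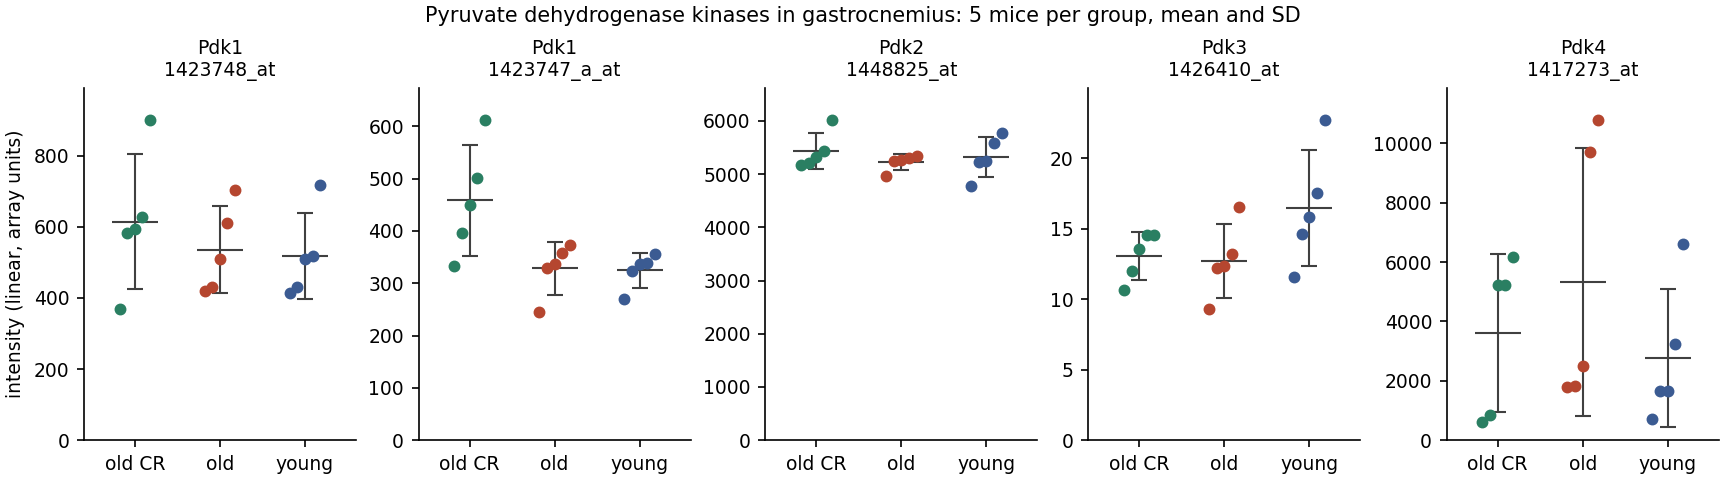
Linear intensity (vertical axes, each starting at 0) of the 5 probe sets of Pdk1, Pdk2, Pdk3 and Pdk4 in old CR, old and young mice, 1 point per mouse, with the mean and SD of 5 mice. Pdk2 lies between 4778 and 6013 in all 15 mice, whereas Pdk4 runs between 619 and 10780, with low and high mice in each group.

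The 250 bases before the transcription starts of Pdk4 and Pdk2, the kinases with the largest and the smallest spread, are shown from RefSeq (GRCm38.p6), at chr6:5496279-5496528 and chr11:95041372-95041621, both on the minus strand. Capitals mark matches to CCAAT, here read on the opposite strand as ATTGG.
Pdk4: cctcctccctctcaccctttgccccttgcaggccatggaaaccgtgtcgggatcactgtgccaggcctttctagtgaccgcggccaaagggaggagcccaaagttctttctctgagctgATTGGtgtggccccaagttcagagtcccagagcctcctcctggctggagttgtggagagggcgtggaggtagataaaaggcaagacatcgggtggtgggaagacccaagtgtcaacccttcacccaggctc
Pdk2: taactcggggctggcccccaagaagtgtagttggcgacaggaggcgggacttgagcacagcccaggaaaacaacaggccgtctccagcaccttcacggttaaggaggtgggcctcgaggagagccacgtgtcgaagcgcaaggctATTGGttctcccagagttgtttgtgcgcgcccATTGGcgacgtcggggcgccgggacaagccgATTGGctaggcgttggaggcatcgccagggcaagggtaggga
The windows were searched on both strands for CCAAT, for the GC box sequence written GGGCGG, for the TATA box sequence written TATAAA, for the nuclear receptor half-site written AGGTCA and for the FoxO site written GTAAACA. Pdk4 held 1 match to CCAAT and Pdk2 held 3, and neither held a match to the other 4 motifs. A match is a description, and its absence says only that these letters are not in this window. Of 32851 promoters of this length, 33.8% held CCAAT, 32.7% GGGCGG, 12.4% TATAAA, 14.0% AGGTCA and 3.17% GTAAACA. Over the first promoters of the 9 genes, 5 held CCAAT, 5 held GGGCGG and 0 held any of the other 3 motifs.

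The genes that stood closest to Pdk4 over the 15 arrays were chosen after its values were seen, by Pearson's r of log2 values among 10103 bright probe sets with 1 symbol. The highest were Ucp3, a mitochondrial carrier known to rise in fasted muscle (1420657_at, r = 0.869), Fbxo32, the atrogin-1 ubiquitin ligase of muscle wasting (1448747_at, r = 0.860), and Klf6, a zinc finger transcription factor (1433508_at, r = 0.849). Ucp3 had 424, 467, 1387, 1561 and 1882 in old CR mice, 599, 662, 658, 2155 and 1458 in old mice and 702, 705, 1314, 1652 and 1143 in young mice. As with Pdk4, old CR replicates 2 and 3 were low, and old replicates 4 and 5 were high. Fbxo32 had 1197, 1650, 2533, 3058 and 3652 in old CR mice, 2992, 2145, 2147, 5766 and 4383 in old mice and 3250, 1286, 3304, 2347 and 2570 in young mice. Other probe sets of these genes were less like Pdk4, with r of 0.350 for Ucp3 1420658_at, 0.751 for Fbxo32 1417522_at, and 0.346 and 0.275 for Klf6.

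The lowest r belonged to Nr1d1, which encodes the clock repressor Rev-erb alpha (1426464_at, r = -0.933), followed by Ddit3, the stress-induced factor CHOP (1417516_at, r = -0.914), and Scd2, a fatty acid desaturase (1415823_at, r = -0.840). Scd2 1415822_at and 1415824_at had r of -0.716 and -0.565. Nr1d1 had 1488, 1528, 553, 717 and 621 in old CR mice, against 1189, 1220, 1312, 641 and 646 in old mice and 1226, 1783, 768, 1115 and 1166 in young mice. The 3 old CR mice and the 2 old mice with the most Pdk4 had the least Nr1d1 of their groups, as did the young mouse with the most Pdk4. After removing group means the r was -0.976, and without the 2 mice farthest from the median of Pdk4 it was -0.931. None of these 6 genes was called at these probe sets in any comparison. The hour of tissue collection was not given, so its part in these values was not tested.

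**Figure D5:**
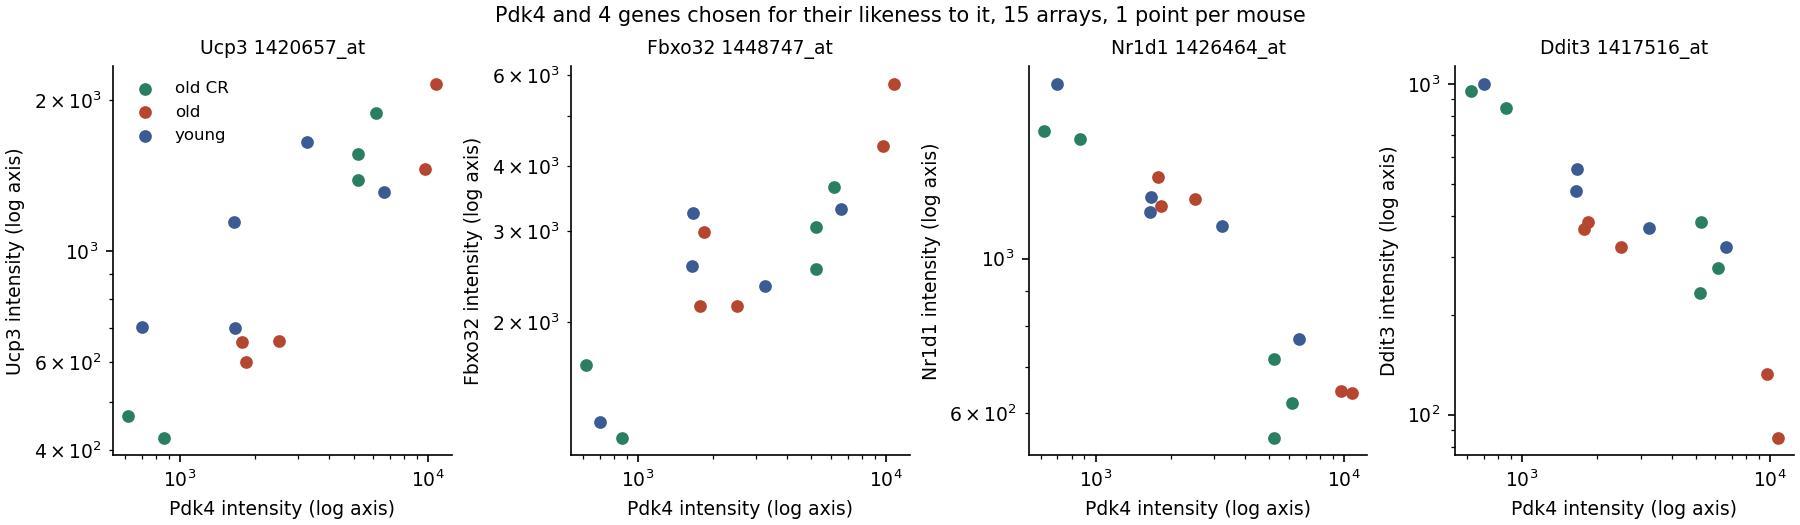
Intensities of Ucp3, Fbxo32, Nr1d1 and Ddit3 (vertical axes) against Pdk4 (horizontal axes), all on log axes, 1 point per mouse and colored by group. Ucp3 (r = 0.869) and Fbxo32 (r = 0.860) run with Pdk4 and Nr1d1 (r = -0.933) and Ddit3 (r = -0.914) against it, and mice of all 3 groups lie both at the left and at the right of each panel.

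Of 20 genes known to respond to fasting in muscle as targets of PPAR, FoxO or glucocorticoid signals, 16 were measured, and 5 had an r with Pdk4 above 0.5 over the 15 arrays: Ucp3, Fbxo32, Angptl4, an inhibitor of lipoprotein lipase (0.808), Fkbp5, a chaperone induced by glucocorticoids (0.650), and Cpt1a, which passes fatty acids into mitochondria (0.645). The median r of the 16 was 0.23 and 15 were positive. Among the 10103 bright probe sets 4.18% were above 0.5, 4901 were positive and the median was -0.01. Angptl4 had 32, 66, 324, 522 and 358 in old CR mice, 401, 222, 269, 1362 and 602 in old mice and 234, 260, 573, 414 and 128 in young mice. Without the 2 mice farthest from the median of Pdk4 the r was 0.702 for Angptl4, 0.538 for Fkbp5 and 0.397 for Cpt1a. These values for Angptl4 are of 1417130_s_at, and its other, dim probe set 1453410_at had an r of -0.095 over the 15 arrays. Of 12 transcription factors and coactivators known to act on Pdk4, 0 had an r above 0.5, the highest being Nr3c1, the glucocorticoid receptor, at 0.455. As a list, the fasting genes had 1 of 16 called in old CR against old, Hadha, the alpha subunit of the trifunctional protein of fatty acid oxidation (log2 0.96, adjusted p = 0.00791), whose r with Pdk4 was -0.277. None was called in the other comparisons, where Cd36, a fatty acid carrier, had the smallest adjusted p in old against young (log2 0.66, adjusted p = 0.171).

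Among the other genes around the complex, all calls fell in old CR against old, where 2.7% of all probe sets rose and 2.17% fell. In the fit of the 11000 brightest probe sets alone, 877 rose and 930 fell. The calls and counts of these genes hold for the probe set of highest mean of each gene, and other probe sets can differ. The 3 phosphatase genes of the complex were not measured. Of 19 genes of pyruvate supply and of other fates of pyruvate 16 were measured, and 3 of them rose: Pkm, the muscle pyruvate kinase (14757 ± 2076 in old CR and 9758 ± 1141 in old mice, log2 0.59, adjusted p = 0.0299), Pcx, the pyruvate carboxylase that makes oxaloacetate (1283 ± 246 in old CR and 747 ± 142 in old mice, log2 0.78, adjusted p = 0.0306), and Aldoa, the muscle aldolase (40008 ± 6081 in old CR and 27211 ± 4248 in old mice, log2 0.56, adjusted p = 0.0365; SD, n = 5 each). All 16 means were higher in old CR than in old mice (12 with centering, 13 with quantile normalization), with a median log2 difference of 0.18 beside 0.06 over all probe sets. The 7 skeletal muscle fiber genes moved with this list, with all 7 means higher in old CR than in old mice (6 with centering, 5 with quantile normalization), a median log2 difference of 0.33 and 1 call, Myh1, a fast myosin heavy chain (log2 0.52, adjusted p = 0.0297). Their part in the values of the list was not tested. In old against young, 14 of 16 means of the pyruvate list were lower (12 with centering, 13 with quantile normalization). The median was -0.30 beside -0.06, and 0 genes were called by limma. An unadjusted p under 0.05 was found for 7 of 16, beside 15.5% of all probe sets. All 16 were among the 11000 brightest, whose own fit had 23.7%. The smallest adjusted p of the list in old against young belonged to Pkm (log2 -0.60, adjusted p = 0.0746) and to Pgam2, the muscle phosphoglycerate mutase (log2 -0.50, adjusted p = 0.0949). No gene of this list was called in old CR against young, where the median was 0.02.

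Of 11 genes of the sister 2-oxoacid dehydrogenases and of lipoylation 10 were measured, and Bckdhb, the E1 beta subunit for branched-chain keto acids, was the 1 that rose in old CR against old (1027 ± 196 in old CR and 645 ± 141 in old mice, log2 0.68, adjusted p = 0.0365). Gcsh, the lipoyl carrier of the glycine cleavage system, had the smallest adjusted p of this list in old against young (1641 ± 190 in old and 1088 ± 83 in young mice, log2 0.59, adjusted p = 0.0714). Of 9 genes of acetyl-CoA metabolism 8 were measured. In old CR against old 2 of them rose and 2 fell at the probe sets read. Cs was counted at 1422578_at (log2 -0.06), which was not called, whereas its probe set 1422577_at rose (log2 1.09, adjusted p = 0.0193 from limma). Acly, which makes cytosolic acetyl-CoA from citrate, rose (2414 ± 757 in old CR and 668 ± 183 in old mice, log2 1.85, adjusted p = 0.00511), as did Acat1, a mitochondrial thiolase (6806 ± 838 in old CR and 4777 ± 427 in old mice, log2 0.51, adjusted p = 0.0343). Mlycd, which breaks down malonyl-CoA, fell (994 ± 170 in old CR and 1765 ± 525 in old mice, log2 -0.80, adjusted p = 0.0349), as did Acacb, which makes malonyl-CoA at the mitochondrion (1738 ± 147 in old CR and 2461 ± 309 in old mice, log2 -0.50, adjusted p = 0.0423). Of the 12 transcription factors and coactivators, Nr3c1 fell (980 ± 123 in old CR and 1417 ± 142 in old mice, log2 -0.54, adjusted p = 0.0389) and Ppard, a nuclear receptor for fatty acids, rose at a dim probe set (10.4 ± 1.1 in old CR and 7.13 ± 1.06 in old mice, log2 0.55, adjusted p = 0.0463). With centering the adjusted p was 0.0586 for Aldoa, 0.0577 for Bckdhb, 0.0857 for Acat1 and 0.0738 for Ppard, and with quantile normalization 0.0942 for Aldoa, 0.0686 for Pkm, 0.0597 for Acacb, 0.0587 for Nr3c1, 0.269 for Ppard and 0.0955 for Myh1, so these calls were lost there. All calls of these lists fell away once the end difference was a covariate, since 0 probe sets of the array were then called in old CR against old. The end difference did not overlap between these groups, so that fit cannot tell it apart from diet. The log2 differences of the called genes kept their sign there, with 1.84 for Acly and -0.92 for Mlycd but 0.25 for Pkm and -0.28 for Nr3c1.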

How the data were processed

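Gastrocnemius poly(A)+ RNA of 15 mice was hybridized to MOE430A arrays, each of which the authors scanned repeatedly and averaged. In the table that the authors deposited, each array has a single linear intensity for each probe set. The submitters' processing notes name RMA and MAS5 (versions not given in the sources used here), and equal trimmed means (2% at each end) with unequal quartiles show array-by-array scaling, as MAS5 gives, not RMA values. The log2 of the deposited intensities was taken without a pseudocount. Leaving out 64 control probe sets, 22626 entered limma 3.58.1 in R 4.3.3 (3 groups in 1 fit, lmFit and eBayes), with Benjamini-Hochberg adjustment. Exact permutation tests, two-sided, were run in Python 3.11.15 with NumPy 2.4.6 and pandas 2.3.3. The fit was tested on simulated data. The number of arrays limits the precision.

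By the platform annotation, 20393 probe sets had 1 symbol, 691 had several and 1606 had none. Named were the 9 members, the 3 probe sets most like a called member, and up to 4 called genes per list and comparison, or else the 2 of smallest adjusted p. Genes like Pdk4 or opposite to it were added after its values were seen. The members and lists were chosen with earlier results of these data known. The alternatives were the 11000 brightest probe sets, median centering, quantile normalization, 2 groups only, a variance trend with robust eBayes, the replicate number as a block, the end difference (3' minus 5', Gapdh and Actb) as a covariate, an adjusted p under 0.10 and leaving out each array.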

Additional observations from a re-analysis of the deposited data

Results flagged for a closer look

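Of the 39 groups of 5 values (13 probe sets, 3 groups), 3 held a mouse set far from the other 4, where about 1.95 were expected if chance marks 1 in 20. Young replicate 3 was low for Pdha1 at 1449137_at, with 2501 against 6484 to 6915 in the other young mice, a gap of 0.937 of the group's range in log2 units. Old CR replicate 2 was high for Dld at 1423159_at, with 2740 against 1498 to 1669, a gap of 0.821 of the range. Old replicate 3 was low for Pdk2 at 1448825_at, with 4965 against 5251 to 5339, a gap of 0.770 of the range.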

How the results depend on the processing

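The members called in old against young numbered 1 in place of 0 among the 11000 brightest probe sets, with the variance trend, at an adjusted p under 0.10 and without young replicate 3 (0 to 1 over the arrays left out), each time Pdha1 1449137_at. In old CR against old they numbered 2 in place of 1 under the first 3 of these (with Pdhb 1416090_at), and 0 with the replicate block and with the end difference as a covariate. They stayed at 0 in old CR against young in all settings. Over the whole array, calls in old against young (60) were 594 among the brightest, 6 with 2 groups, 418 with the trend, 0 with the replicate block, 0 with the covariate, 380 at 0.10 and 0 to 1067 leaving out an array, with 1067 without young replicate 3. In old CR against old (1102) they were 1807, 1666 with the trend, 4 with the replicate block, 0 with the covariate, 2289 at 0.10 and 462 to 1657 leaving out an array, lowest without old replicate 2. For old CR against young (20) they were 216, 12 with centering, 6 with 2 groups, 151 with the trend, 0 with the replicate block, 8 with the covariate, 99 at 0.10 and 7 to 34 leaving out an array.

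With centering the higher and lower calls were 32 and 12 in old against young (in place of 27 and 33) and 9 and 3 in old CR against young (in place of 11 and 9). The scalings and the covariate were applied to the gene lists after seeing the data.

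The labels share replicate numbers, but same-numbered samples did not deviate together (correlations of -0.271 to 0.078), so the main fit did not pair mice by number. Old CR shares only the numbers 2, 3 and 5 with the other groups, so this check cannot settle what the numbers stand for. With the block, Pdha1 1449137_at in old CR against old had 1.49 (adjusted p = 0.159) against 1.39.

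Of 618 values of 27 single results under the alternatives, 571 kept direction and side, 2 lost the call, 7 gained it and 38 turned sign, none of them called under either setting. In old against young, Pdha1 1418560_at had 0.068 with centering, 0.039 with quantile normalization and 0.068 with the covariate, and Pdk2 0.067 with centering. In old CR against old, Dlat 1426265_x_at had -0.053, Pdk2 -0.034 and Pdk3 -0.035 with centering, Dld 0.0021, Pdk2 -0.00058 and Pdk3 -0.18 with quantile normalization, Dld 0.014 with the block, and Dld 0.27, Pdk1 -0.029 and Pdk3 -0.31 with the covariate. For old CR against young, Pdha1 1449137_at had -0.011 with the covariate, Pdk2 -0.028 with quantile normalization, and Dlat 0.0054 and Pdk4 -0.46 with the block.

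Leaving out an array, old against young ran between -0.062 and 0.024 for Pdha1 1418560_at, -0.059 and 0.17 for Pdk1 1423748_at, and -0.062 and 0.0064 for Pdk2. Old CR against old ran between -0.11 and 0.14 for Dlat 1426265_x_at, -0.21 and 0.014 for Dld, and -0.054 and 0.16 for Pdk3. Old CR against young ran between -0.25 and 0.0054 for Dlat 1426265_x_at, -0.0068 and 0.061 for Pdk2, and -0.17 and 0.73 for Pdk4. The causes of these shifts were not tested. A background correction and a block for slide or scan were not run, since the table and labels hold neither.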
